A study of Mus musculus with 8 samples.

Results

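The cholesterol and fatty acid synthesis genes are 28 genes taken by name from a table of 46635 loci, and all 28 were present and passed the filter on low values. They comprise 18 enzymes of the sterol pathway, 6 enzymes of fatty acid synthesis, and 4 genes that regulate these enzymes or carry sterol between membranes (Srebf1, Srebf2, Insig1 and Stard4). All animals were wild-type mice, and RNA was taken from what EDTA leaves of the small intestine once the epithelium is stripped, which the labels call mesenchyme. There were 4 libraries of the fetal stage E17.5 and 4 of postnatal day 14 (P14). The stage is written E17 in one label and E17.5 in the protocol. Whether a library stands for 1 animal or several is not labelled, and p-values therefore cover only the spread between these libraries, which may be technical. The series' title concerns gut elongation, and the 2 ages are what these libraries compare.

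Cholesterol is built from acetyl-CoA through mevalonate and isoprenoid units to squalene, which is closed into a ring and then trimmed and reduced step by step. Fatty acids start from the same acetyl-CoA, which is carboxylated to malonyl-CoA, joined into palmitate, lengthened and desaturated. Both pathways are switched on by the transcription factors SREBP-1 and SREBP-2, which are held in the endoplasmic reticulum by INSIG proteins while sterol is plentiful. In the gut, crypt and villus epithelial cells make cholesterol at a high rate, and growing tissues of the fetus make their own sterol and membrane lipid.

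Because SREBPs act at promoters together with the factor NF-Y, promoters of some members are shown first, as examples that hold an NF-Y box. RefSeq windows (build GRCm38.p6) covered 22 of the 28 members, and Fdft1, Fdps, Scd1, Scd2, Sqle and Stard4 were not among them. The 250 bases before the gene start are given 5′ to 3′ for an early sterol enzyme, for 2 later ones and for the fatty acid synthase, with matches to the sterol regulatory element TCACNCCAC and to the NF-Y box CCAAT, on either strand, in capitals.
Hmgcs1 (chr13:119690101-119690350, plus strand): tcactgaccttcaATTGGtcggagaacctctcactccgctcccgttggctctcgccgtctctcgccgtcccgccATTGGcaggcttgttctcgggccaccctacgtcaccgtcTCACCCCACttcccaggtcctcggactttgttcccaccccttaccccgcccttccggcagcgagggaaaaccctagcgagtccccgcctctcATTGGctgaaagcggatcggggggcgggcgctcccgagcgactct
Msmo1 (chr8:64733579-64733828, minus strand): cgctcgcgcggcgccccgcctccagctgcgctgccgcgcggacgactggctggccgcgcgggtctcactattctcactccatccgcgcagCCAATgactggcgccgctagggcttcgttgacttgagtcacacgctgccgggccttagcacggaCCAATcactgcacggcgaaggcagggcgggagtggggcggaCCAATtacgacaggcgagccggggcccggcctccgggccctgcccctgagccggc
Sc5d (chr9:42264301-42264550, minus strand): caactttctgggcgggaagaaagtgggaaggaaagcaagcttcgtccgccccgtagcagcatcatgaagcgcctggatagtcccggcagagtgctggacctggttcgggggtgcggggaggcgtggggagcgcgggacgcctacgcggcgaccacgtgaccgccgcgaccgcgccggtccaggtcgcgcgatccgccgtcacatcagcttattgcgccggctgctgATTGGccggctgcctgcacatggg
Fasn (chr11:120824548-120824797, minus strand): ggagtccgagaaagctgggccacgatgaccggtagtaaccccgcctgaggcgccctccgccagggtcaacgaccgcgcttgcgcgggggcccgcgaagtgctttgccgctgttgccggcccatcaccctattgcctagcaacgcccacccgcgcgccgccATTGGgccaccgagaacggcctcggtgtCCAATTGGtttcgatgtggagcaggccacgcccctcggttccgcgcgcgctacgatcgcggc

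The NF-Y box was found, on either strand, in the windows of 14 of the 15 sterol enzymes matched and of 1 of the 4 fatty acid enzymes matched (Fasn), against 33.8% of all 32851 windows and 37.5% of the 27025 genes with a window. Acat2 was the sterol enzyme without a match. The only window of the fatty acid enzyme Acaca lay inside the gene's span, not before its first base, so its lack of matches is uncertain. In Msmo1, the sterol C4-methyl oxidase, the box stood at 160, 96 and 55 bases before the start, and in Hmgcs1, the HMG-CoA synthase, at 237, 176 and 45. The 2 boxes of Fasn nearest to its start overlap, on opposite strands. The sterol regulatory element matched in 1 member, Hmgcs1, at 137 bases before the start, and in 1.05% of all windows and 1.22% of genes. The Sp1 box GGGCGG, searched on both strands, was present for 14 of 15 sterol and 1 of 4 fatty acid enzymes (32.7% of windows, 35.4% of genes). The E-box CACGTG was present for Dhcr7, Hsd17b7, Insig1 and Sc5d (6.02% of windows, 6.86% of genes). A member with several starts was counted if any of its windows held the match. These are letter matches in a short window and say nothing of binding in these samples.

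Each library held 16660998 to 19496632 reads assigned to genes, and the least covered member, Mvd, still had 154 reads in its lowest library. Values are FPKM, which divides reads by transcript length and by the size of the library, so levels of different genes can be set side by side. P14 replicate 1 stands apart: the 25 pan-epithelial markers summed to 6860 FPKM there, against 162, 927 and 327 in P14 replicates 2, 3 and 4 and 40.9 to 64.2 at E17.5, and no marker was at 0 throughout. The smooth muscle markers summed to 4060 FPKM in P14 replicate 1, to 11400 to 16000 in the other P14 libraries and to 6480 to 7320 at E17.5. The labelled mesenchyme was thus present in every library, with epithelial RNA beside it in amounts that did not overlap between the ages. The deposited scaling also differs for this library, whose effective library size was 0.78 times its assigned reads (1.02 to 1.06 in the others), so counts of members are also given without it. In bulk RNA, fewer cells of a type and less RNA per cell cannot be told apart.

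With all 8 libraries, none of the 28 members passed the test of P14 against E17.5, in which 9.72% of the 14044 tested genes were called higher and 15.0% lower. Higher genes made up 39.3% of these calls, and 25.1% after TPM rescaling, which moved the median log2 fold change of all genes from 0.00 to -0.18. The test was limma on log2(FPKM + 1), two-sided, adjusted by Benjamini-Hochberg over every tested gene, with a threshold of 0.05. At an unadjusted p below 0.05 there were 3 members (Sc5d, Acly and Srebf2), against 5498 of the 14044 tested genes. Limma's voom on reads recovered from the FPKM also called 0 members, where it called 943 tested genes higher and 2114 lower. Without P14 replicate 1, 2 members rose (Sc5d and Srebf2) and 3 fell (Scd2, Fasn and Stard4), beside 22.6% of all tested genes called higher and 26.9% lower. The median log2 fold change of the 28 members was 0.16 with all libraries and -0.10 without P14 replicate 1, against 0.00 and -0.03 over all tested genes. Groups did not overlap for 4 members with all libraries (36.0% of all tested genes) and for 7 without P14 replicate 1 (54.5%). Both shares of members were below the background.

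**Figure D1:**
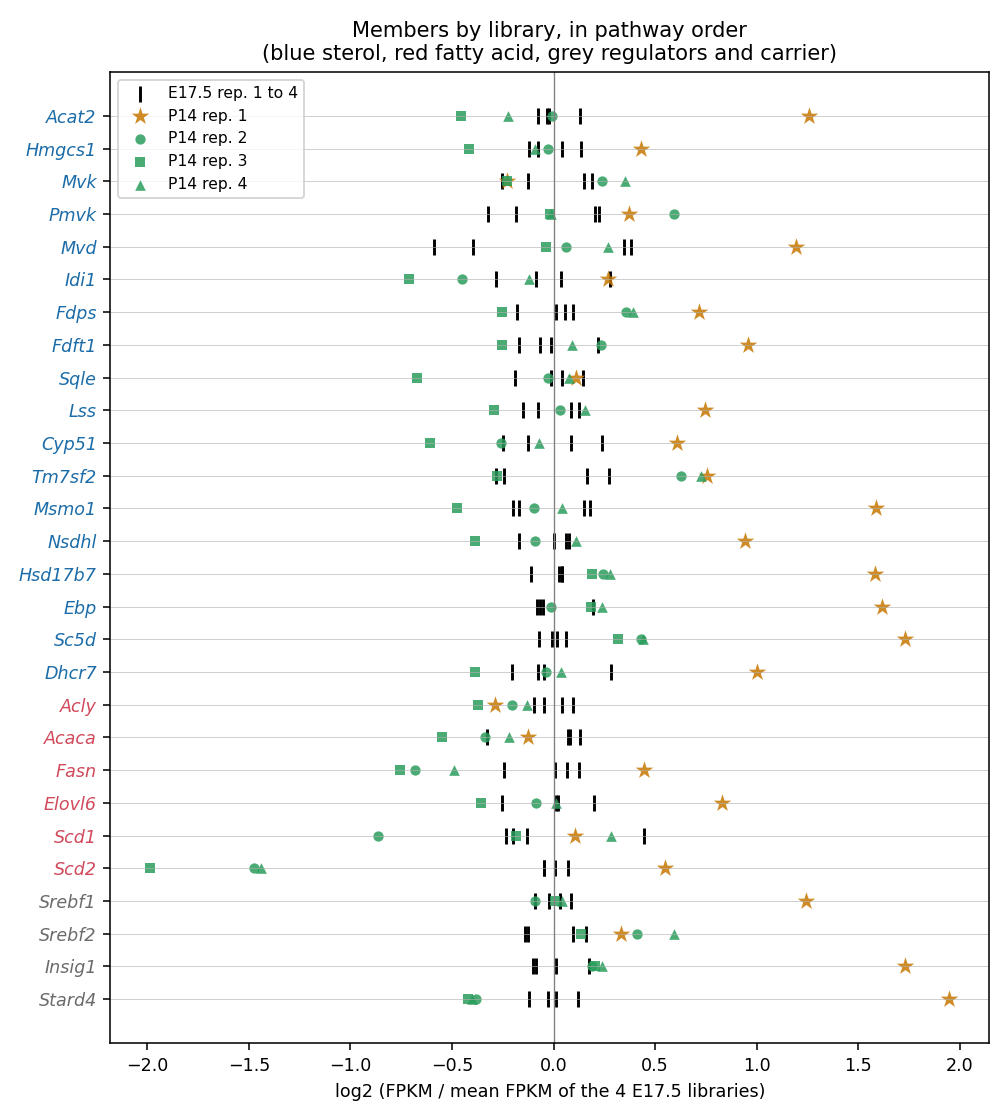
Level of each member in each library as log2 of its FPKM over the mean of the 4 E17.5 libraries (horizontal axis), with genes in pathway order on the vertical axis. Black ticks are E17.5 libraries, stars P14 replicate 1 and green symbols P14 replicates 2 to 4. For 20 of 28 genes the star is the rightmost symbol, and for 24 of 28 the green square, P14 replicate 3, is the lowest of the green symbols.

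The early sterol enzymes make isoprenoid units from acetyl-CoA. Hmgcs1 (gene on chromosome 13, 120151887 to 120169796, GRCm39), which makes HMG-CoA, was, with Fdps, 1 of the 2 most abundant sterol enzymes. It measured 57.3, 51.2, 52.7 and 61.0 FPKM in the E17.5 libraries, in replicate order, and 75.0, 54.6, 41.6 and 52.2 in those of P14. The ages overlapped, with a P14 library at either end. Its log2 fold change was -0.02 (SE 0.174, 95% interval -0.42 to 0.38, limma adjusted p = 0.942). Fdps, which makes farnesyl diphosphate, was at 52.8, 49.9, 43.7 and 51.5 FPKM at E17.5, then 81.4, 63.3, 41.5 and 65.0 at P14. In it, 3 of 4 P14 libraries lay above all E17.5 libraries and P14 replicate 3 below all of them (log2 fold change 0.30, SE 0.195, adjusted p = 0.286).

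Among the remaining mevalonate genes, Acat2 encodes the cytosolic thiolase that joins acetyl-CoA units and shares an old name with a sterol esterification enzyme, which is another gene. Acat2 was at 20.3 to 23.4 FPKM at E17.5, at 51.2 in P14 replicate 1 and at 15.6 to 21.3 in the other P14 libraries. Its direction turned from 0.14 to -0.22 on the log2 scale when P14 replicate 1 was left out (adjusted p = 0.775 and 0.126). Mvk, mevalonate kinase, went the other way in that library, with 13.2 FPKM in P14 replicate 1 against 18.3, 13.2 and 19.8 in the other P14 libraries and 13.0 to 17.7 at E17.5. Pmvk and Mvd, the next kinase and the decarboxylase, had log2 fold changes of 0.22 and 0.38 (adjusted p = 0.377 and 0.378). Idi1, the isopentenyl diphosphate isomerase, had -0.22, and -0.38 without P14 replicate 1 (adjusted p = 0.47 and 0.0722). None of the 7 mevalonate genes passed in either fit.

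Squalene is made by Fdft1, oxidised by Sqle and closed into lanosterol by Lss. Sqle, often described as a second control point of the pathway, was at 36.8, 34.3, 29.2 and 33.0 FPKM at E17.5, then 35.9, 32.7, 20.9 and 35.1 at P14. All but P14 replicate 3 fell within the E17.5 range, and the log2 fold change was -0.12 (95% interval -0.54 to 0.30, limma adjusted p = 0.654). Lss stood at 4.17 to 8.58 FPKM and Fdft1 at 5.57 to 12.9 across all libraries, each highest in P14 replicate 1. The value of Fdft1 is uncertain, because Ctsb overlaps it on the other strand and reached 959 FPKM in P14 replicate 1, and the kit named in the labels is not stated to keep strand. Cyp51, the lanosterol demethylase, had a log2 fold change of -0.06, and -0.28 without P14 replicate 1 (adjusted p = 0.865 and 0.142).

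Of the 11 squalene and sterol enzymes, 9 were at least 1.5 times as high in P14 replicate 1 as in any other P14 library. This held for 2 of the 7 mevalonate enzymes and for 21.8% of all tested genes. Msmo1 (chromosome 8, 65171157 to 65186822), whose promoter is shown above, was at 28.1, 22.5, 22.0 and 28.6 FPKM at E17.5, at 75.9 in P14 replicate 1 and at 23.7, 18.2 and 26.0 in P14 replicates 2, 3 and 4. One P14 library lay far above all others, and the other P14 libraries overlapped with E17.5. Ebp, the sterol isomerase, followed the same layout, with 34.0 FPKM in P14 replicate 1, 11.0 to 13.1 in the other P14 libraries and 10.5 to 12.7 at E17.5. Nsdhl and Dhcr7, a decarboxylating dehydrogenase and the last reductase of the Kandutsch-Russell branch, were at 21.5 and 16.6 FPKM in P14 replicate 1 and at 8.56 to 12.1 and 6.35 to 8.51 in the other P14 libraries. Tm7sf2, a sterol C14-reductase, was at 14, 12.8, 6.82 and 13.7 FPKM at P14 and at 6.81 to 10.0 at E17.5 (log2 fold change 0.44, SE 0.234, limma adjusted p = 0.203). Without P14 replicate 3 Tm7sf2 rose by 0.66 (adjusted p = 0.0345), and its reads are uncertain because Vps51 overlaps it on the same strand.

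For Sc5d and Hsd17b7 the ages did not overlap. Sc5d (chromosome 9, 42162888 to 42175607), the desaturase that makes the substrate of DHCR7, was at 8.48, 9.03, 9.30 and 8.87 FPKM at E17.5, then 29.6, 12.0, 11.1 and 12.1 at P14. All 4 P14 libraries were above all E17.5 libraries. The log2 fold change was 0.68 (SE 0.285, limma adjusted p = 0.118), and without P14 replicate 1 the gene rose by 0.36 (SE 0.0705, adjusted p = 0.00345). Hsd17b7, the sterol 3-keto reductase, was at 3.34, 3.72, 3.71 and 3.68 FPKM at E17.5, then 10.8, 4.27, 4.12 and 4.37 at P14. P14 replicate 1 was far above the rest, the other P14 libraries were just above E17.5, and the adjusted p was 0.217 with all libraries and 0.0756 without P14 replicate 1.

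With all libraries none of the fatty acid enzymes passed, and without P14 replicate 1 only Scd2 and Fasn did. Scd2 (chromosome 19, 44282115 to 44295303), a stearoyl-CoA desaturase that makes monounsaturated fatty acids, was the most abundant member, at 159, 153, 153 and 166 FPKM before birth. At P14 it was at 231 FPKM in replicate 1 and at 56.9, 39.9 and 58.3 in replicates 2, 3 and 4. P14 replicates 2 to 4 lay below all E17.5 libraries and P14 replicate 1 above all of them. With all libraries the log2 fold change was -1.07 (SE 0.485, limma adjusted p = 0.141), and without P14 replicate 1 Scd2 fell by 1.61 (SE 0.13, adjusted p = 4.99e-05). The mean of P14 replicates 2 to 4 was 0.327 times the E17.5 mean. Its neighbour and paralog Scd1 (chromosome 19, 44382889 to 44396148) was at 7.32, 6.81, 6.97 and 10.9 FPKM at E17.5, then 8.61, 4.40, 7.05 and 9.73 at P14, with overlapping ages (log2 fold change -0.12, 95% interval -0.66 to 0.43). Reads shared between the Scd paralogs are a source of uncertainty for both.

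Fasn (chromosome 11, 120696784 to 120715992), the synthase that makes palmitate, was at 14.1 to 18.2 FPKM over the 4 E17.5 libraries, at 22.7 in P14 replicate 1 and at 10.4, 9.88 and 11.9 in P14 replicates 2, 3 and 4. As for Scd2, P14 replicate 1 was above and the other P14 libraries were below every E17.5 library. The log2 fold change was -0.34 (SE 0.246, limma adjusted p = 0.344), and without P14 replicate 1 Fasn fell by 0.59 (SE 0.103, adjusted p = 0.00205). Acly, which cleaves citrate to the acetyl-CoA that both pathways use, was at 26.0, 25.0, 23.5 and 22.7 FPKM at E17.5, then 19.9, 21.1, 18.8 and 22.2 at P14. All P14 libraries were below all E17.5 libraries, P14 replicate 1 included, by -0.24 on the log2 scale (SE 0.0952, limma adjusted p = 0.105, and 0.052 without P14 replicate 1). Acaca, acetyl-CoA carboxylase, had -0.25 and -0.30 without P14 replicate 1 (adjusted p = 0.195 and 0.0659), and overlaps Tada2a on the other strand, which had at most 8.87 FPKM. Elovl6, an elongase that lengthens palmitate, was at 11.5 to 15.7 FPKM at E17.5, at 24.3 in P14 replicate 1 and at 10.7 to 13.8 in the other P14 libraries (adjusted p = 0.77).

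The classes were set beside each other by their sums and medians, since 1 sterol enzyme (Sc5d) and 2 fatty acid enzymes (Scd2 and Fasn) passed without P14 replicate 1 and the ages overlapped for most members of the sterol class and for Scd1, Elovl6 and Acaca. Summed FPKM of the 18 sterol enzymes was 335, 307, 282 and 319 at E17.5, in replicate order, and 552, 329, 245 and 339 at P14. Summed FPKM of the 6 fatty acid enzymes was 228, 221, 219 and 235 at E17.5 and 312, 110, 89.9 and 120 at P14. Without Scd2, which made up most of that sum at E17.5, the other 5 summed to 65.5 to 69.1 at E17.5, to 80.4 in P14 replicate 1 and to 50.1 to 62.2 in P14 replicates 2 to 4. The sums of P14 replicates 2 to 4 were thus below every E17.5 library with and without Scd2, whereas the sterol sums overlapped.

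With all libraries the median log2 fold change was 0.19 for the sterol enzymes and -0.24 for the fatty acid enzymes, and without P14 replicate 1 it was 0.00 and -0.26. After TPM rescaling of all libraries it was 0.02 and -0.44, beside -0.18 over all tested genes. Of 18 sterol enzymes 1 rose and 0 fell without P14 replicate 1, and of 6 fatty acid enzymes 0 rose and 2 fell. Of all tested genes 22.6% were called higher and 26.9% lower. The sterol counts were below these shares, and 2 of 6 fatty acid enzymes called lower is close to the share of all genes. Taken per library, the sterol median minus the fatty acid median, each as log2 change from the E17.5 mean, was 0.52, 0.46, 0.16 and 0.25 in P14 replicates 1 to 4 and -0.09 to 0.07 at E17.5. The E17.5 values lie around 0 by construction, since each gene was set against its mean over those libraries. The comparison is a description of chosen genes, and no test of the classes was made. With all libraries and TPM, median-of-ratios, quantile or assigned-read scaling, the difference of the class medians was 0.39 to 0.46. All of these but the quantile scaling multiply a whole library by 1 factor. They shift all genes nearly alike and could hardly move this difference.

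**Figure D2:**
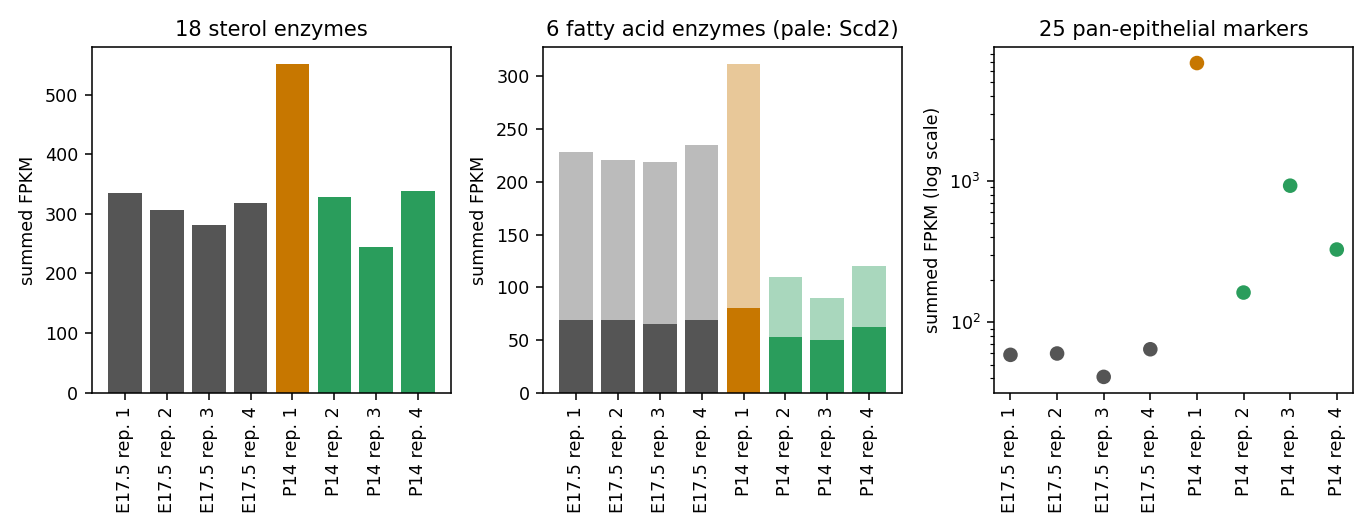
Summed FPKM per library of the 18 sterol enzymes (left), of the 6 fatty acid enzymes with the share of Scd2 in the pale part (middle) and of the 25 pan-epithelial markers on a log axis (right). Grey is E17.5, orange P14 replicate 1 and green P14 replicates 2 to 4. The sterol bars of the green libraries lie at 245 to 339 beside 282 to 335 at E17.5, and the fatty acid bars at 89.9 to 120 beside 219 to 235.

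**Figure D3:**
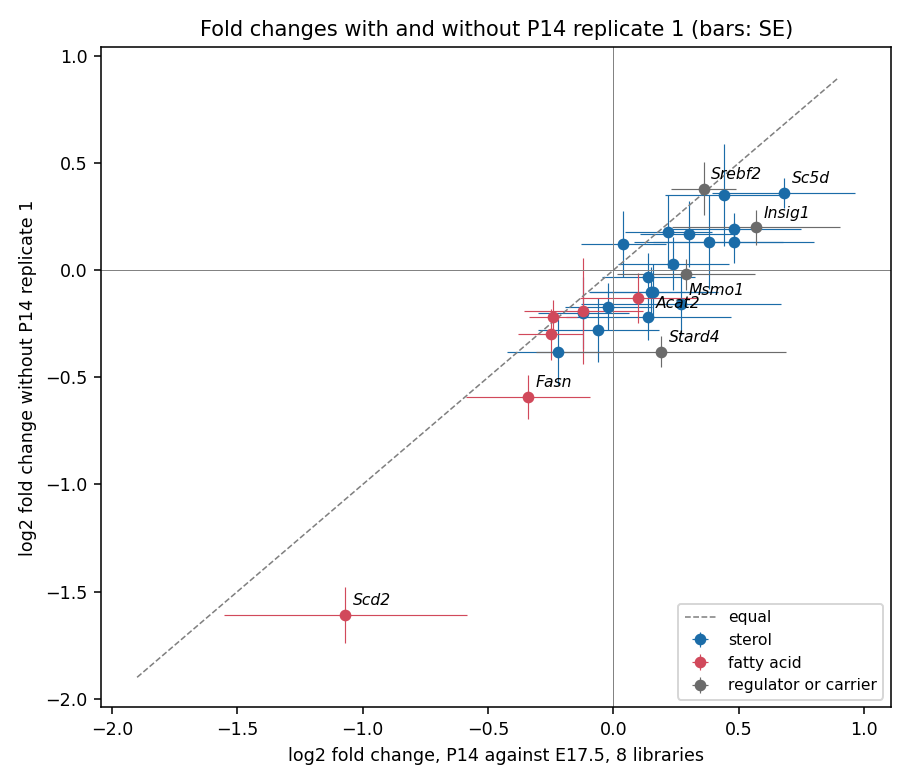
Log2 fold change of each member, P14 against E17.5, with all 8 libraries (horizontal) and without P14 replicate 1 (vertical), with SE bars. Most points lie below the dashed line of equal values, Stard4 crosses from 0.19 to -0.38, and Scd2 moves from -1.07 to -1.61.

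The genes of the regulators did not move together. Srebf2 (chromosome 15, 82031470 to 82089580), which encodes SREBP-2, the main activator of the sterol enzymes, was at 46.3, 44.3, 37.6 and 38.0 FPKM at E17.5, then 52.3, 55.1, 45.5 and 62.6 at P14. Only P14 replicate 3 fell within the E17.5 range. The log2 fold change was 0.36 (SE 0.129, limma adjusted p = 0.0734). Srebf2 rose by 0.38 without P14 replicate 1 (SE 0.124, limma adjusted p = 0.0338). That call was narrowly lost after TPM rescaling of the same libraries (log2 fold change 0.31, limma adjusted p = 0.051). Srebf1, which encodes SREBP-1, was at 16.9 to 19.1 FPKM at E17.5, at 42.6 in P14 replicate 1 and at 16.9 to 18.5 in the other P14 libraries. Without P14 replicate 1 its log2 fold change was -0.02 (95% interval -0.18 to 0.15).

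Insig1, which encodes a retention protein for SREBPs and is itself a target of SREBPs, was at 20.4, 18.8, 19.0 and 22.8 FPKM at E17.5, then 67.1, 23.0, 23.3 and 23.8 at P14. The ages did not overlap, though P14 replicate 2 was only just above E17.5 replicate 4 (log2 fold change 0.57, limma adjusted p = 0.24, and 0.20 and 0.0736 without P14 replicate 1). Stard4, a soluble sterol carrier, was at 19.3, 21.2, 20.6 and 22.8 FPKM at E17.5, at 81.0 in P14 replicate 1, and 16.1, 15.7 and 15.9 in the other P14 libraries. The highest and the 3 lowest values thus all came from P14. With all libraries its log2 fold change was 0.19 (SE 0.499, limma adjusted p = 0.799), and without P14 replicate 1 Stard4 fell by 0.38 (SE 0.073, adjusted p = 0.0034).

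P14 replicate 1 read apart held the highest value of all 8 libraries for 20 of 28 members, against 33.9% of all tested genes, and for 14 after TPM rescaling, against 18.1%. It was at least 1.5 times the highest other P14 library for 17 members, against 21.8% of tested genes. The ratio of P14 replicate 1 to the mean of P14 replicates 2 to 4 had a median of 1.52 over the 7 mevalonate enzymes, 2.07 over the 11 squalene and sterol enzymes and 1.58 over the 6 fatty acid enzymes, where all tested genes had a median of 1.02. It ranged from 0.775 for Mvk to 5.09 for Stard4, with Scd2 at 4.47, Msmo1 at 3.35, Insig1 at 2.88 and Acat2 and Ebp at 2.78 each. Mvk, Acly and Srebf2 had ratios below 1, of 0.775, 0.962 and 0.962. After TPM rescaling the medians were 1.08, 1.48 and 1.13, against 0.727 for all tested genes. With 1 library there is no test of these ratios, and the part of the epithelial RNA in them was not tested.

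**Figure D4:**
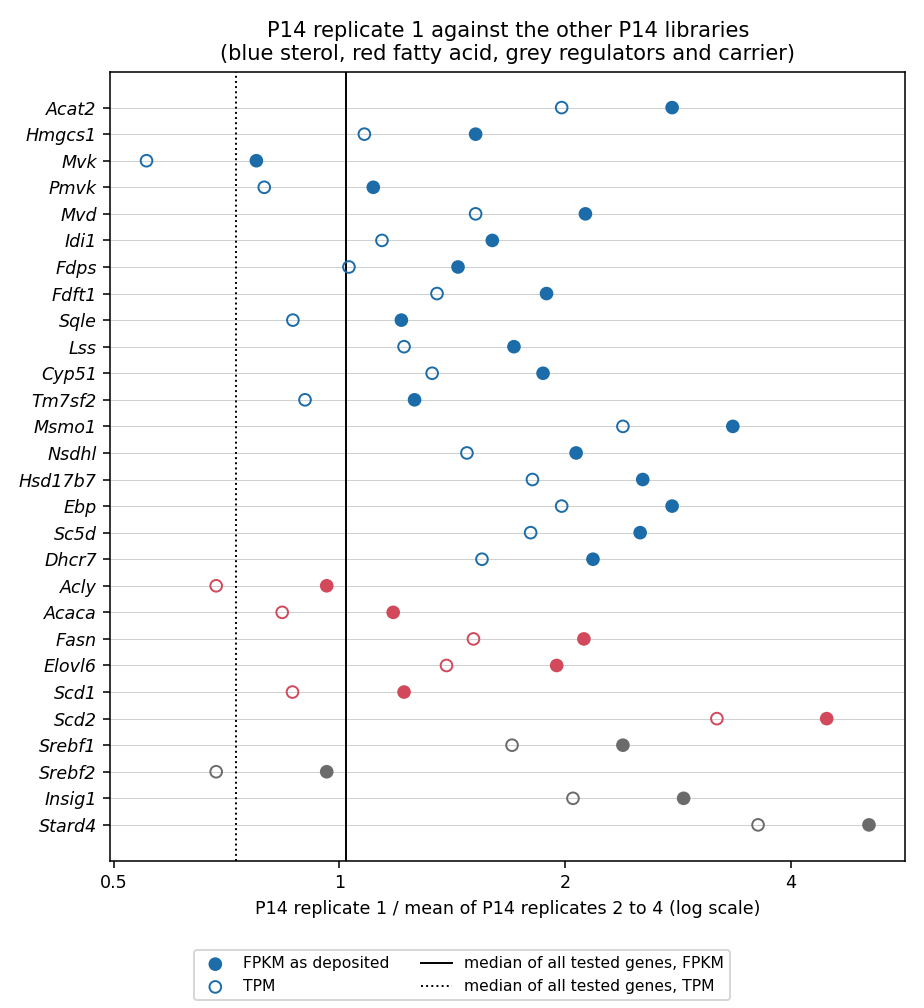
Ratio of P14 replicate 1 to the mean of P14 replicates 2 to 4 for each member on a log axis, from deposited FPKM (filled) and TPM (open). Lines give the medians of all tested genes, 1.02 for FPKM and 0.727 for TPM. Stard4 and Scd2 lie furthest to the right, and Mvk, Acly and Srebf2 lie left of the line of their scale.

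Among the other 3 P14 libraries, replicate 3 was the lowest for 24 of 28 members, 17 of the 18 sterol enzymes among them, against 40.0% of all tested genes. That library had the most epithelial RNA of the 3 (a median over 15 tested markers of 14.4% of the level in P14 replicate 1, against 1.39% and 4.66% in replicates 2 and 4) and the lowest sterol sum. P14 replicate 1 was highest of the P14 libraries in both, and replicate 4 was above replicate 2 in both. The part of the epithelial RNA in the order of these libraries was not tested. With P14 replicates 1 and 3 both left out, a choice made after the data had been seen, 4 members were called higher (Fdps, Sc5d, Srebf2 and Tm7sf2) and 3 lower (Scd2, Fasn and Stard4), beside 20.7% and 23.3% of all tested genes. Scd2 then fell by 1.44 and Fasn by 0.54, with 2 P14 libraries left.

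Summed levels of cell division genes and of markers of other cell types were also read beside these genes. The 26 cell division genes summed to 832 to 897 FPKM at E17.5, to 515 to 551 in P14 replicates 2 to 4 and to 348 in P14 replicate 1. Of them, 20 fell with all libraries and 23 without P14 replicate 1, where 15.0% and 26.9% of all tested genes were called lower. Endothelial markers, 13 in all, summed to 990 to 1090 FPKM at E17.5, to 606 to 736 in P14 replicates 2 to 4 and to 324 in P14 replicate 1. Macrophage markers, 13 in all, summed to 464 to 502 FPKM at E17.5, to 221 to 345 in P14 replicates 2 to 4 and to 361 in P14 replicate 1. Their ratio of P14 replicate 1 to the mean of P14 replicates 2 to 4 had a median of 0.721 and a maximum of 6.3. Adipocyte markers, 14 in all, summed to 282 to 333 FPKM at E17.5, to 281 to 320 in P14 replicates 2 to 4 and to 243 in P14 replicate 1, a sum made up mostly of Fabp4. Of the 8 adipocyte markers tested, 5 rose and 0 fell, where 9.72% of all tested genes were called higher and 15.0% lower. Without P14 replicate 1 the counts were 5 and 2, beside 22.6% and 26.9%. The filter asks for 1 FPKM in 4 of the 8 libraries, so a marker could pass it through P14 alone. The median level of the 8 in P14 replicates 2 to 4 was 263 to 293% of the E17.5 mean, and 214% in P14 replicate 1. Glia and Schwann markers, 14 in all, summed to 94.6 to 100 FPKM at E17.5, to 111 to 158 in P14 replicates 2 to 4 and to 145 in P14 replicate 1. The median level of the 10 tested was 96.4% of the E17.5 mean in P14 replicate 1, against 165 to 181% in P14 replicates 2 to 4. No marker on these lists was at 0 throughout. Erythroid markers, 10 in all, summed to 1650 to 2410 FPKM at E17.5, to 341 to 571 in P14 replicates 2 to 4 and to 369 in P14 replicate 1. Fibroblast, enteric neuron and mesothelial markers summed to 1070, 208 and 26.2 FPKM in P14 replicate 1. In P14 replicates 2 to 4 they summed to 2940 to 3000, 556 to 725 and 161 to 201. At E17.5 they summed to 2530 to 2820, 398 to 451 and 74.1 to 131. Each of these sums was thus above E17.5 in P14 replicates 2 to 4 and below it in P14 replicate 1. In P14 replicates 2 to 4 the division, endothelial, macrophage and erythroid sums were below E17.5, as were Scd2 and Fasn. In P14 replicate 1 the division, endothelial, macrophage and erythroid sums were below E17.5 too, whereas Scd2 and Fasn were above it. The part of these cell types in the values of Scd2 and Fasn was not tested.

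Neighbouring steps of lipid metabolism were read from 5 further lists. The shares of all tested genes called, against which their counts are read, are 9.72% higher and 15.0% lower with all libraries and 22.6% and 26.9% without P14 replicate 1. Of 25 tested genes of cholesterol uptake, storage and efflux, 1 rose and 5 fell (1 and 12 without P14 replicate 1). Ch25h, which makes 25-hydroxycholesterol, fell by 1.72 (SE 0.174, limma adjusted p = 0.000881), from 5.17 ± 0.309 to 0.904 ± 0.427 FPKM (SD, n = 4). The cholesterol exporters Abca1 and Abcg1 fell by 1.34 and 1.23, from 14.9 ± 2.51 to 5.29 ± 0.832 and from 7.77 ± 0.482 to 2.75 ± 0.371 FPKM. All 3 also passed without P14 replicate 1. Apoe, the apolipoprotein with the highest level on the list, was at 216 ± 51.4 and 152 ± 33.6 FPKM (adjusted p = 0.127).

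Of 20 other sterol and isoprenoid genes, 4 rose and 0 fell (4 and 5 without P14 replicate 1, and 1 and 2 after TPM rescaling). Prkaa2, a catalytic subunit of the AMP-activated kinase that inhibits both pathways by phosphorylation, rose by 1.11 (SE 0.133), and Fdx1, a mitochondrial ferredoxin, and Acat1, the mitochondrial thiolase, by 0.58 and 0.45. The Acat1 call was lost without E17.5 replicate 3 (adjusted p = 0.0582), and after TPM rescaling the adjusted p was 0.117 for Acat1 and 0.0514 for Fdx1. Cnbp, a nucleic acid binding protein and the most abundant of these, had 188 ± 12.3 and 178 ± 11.0 FPKM.

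Of 15 genes of SREBP processing and its cofactors, 3 rose and 3 fell (5 and 6 without P14 replicate 1). The higher calls did not hold under other scalings: after TPM rescaling 0 rose and 4 fell, beside 6.40% and 19.1% of all tested genes, and by assigned reads 0 rose and 3 fell, beside 7.48% and 15.0%. Nfya, the subunit of NF-Y that contacts the box marked in the promoters above, fell by 0.87 (SE 0.125, limma adjusted p = 0.00311), from 21.5 ± 2.21 to 11.4 ± 1.59 FPKM. Rnf145, a ubiquitin ligase of the endoplasmic reticulum, fell by 0.48, and Usp20, a deubiquitinase, rose by 0.46, a call lost without E17.5 replicate 3 (adjusted p = 0.0582), after TPM rescaling (0.143) and by assigned reads (0.0629). Akt1, a kinase upstream of SREBP-1, had the highest level at 104 ± 16.0 and 127 ± 43.0 FPKM (adjusted p = 0.432).

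Of 23 tested genes among the other fatty acid synthesis genes, 2 rose and 0 fell (8 and 5 without P14 replicate 1). Me1, the malic enzyme that supplies NADPH, rose by 0.81 (SE 0.143), and Tecr, the reductase of the elongation cycle, by 0.49 (SE 0.0976), the latter not after TPM rescaling (adjusted p = 0.113). Of 26 tested genes of glycerolipid synthesis, 3 rose and 0 fell (10 and 5 without P14 replicate 1). Agpat3, an acyltransferase, Gpat3, which starts the pathway, and Mogat2, which re-esterifies absorbed monoglyceride, rose by 1.04, 1.84 and 3.62. Each of these calls was lost without E17.5 replicate 3 (adjusted p = 0.0613, 0.0705 and 0.111) or E17.5 replicate 4 (0.0597, 0.0738 and 0.101), and those of Gpat3 and Mogat2 also without E17.5 replicate 1 (0.08 and 0.0978), E17.5 replicate 2 (0.0792 and 0.0981) or P14 replicate 3 (0.0634 and 0.105). That of Mogat2 was lost without P14 replicate 4 as well (0.0686). Dgat2, a triglyceride-forming acyltransferase, was at 492, 9.21, 57.6 and 22.1 FPKM in P14 replicates 1 to 4 and at 5.02 to 6.95 at E17.5, in the order of the epithelial level across the P14 libraries. P14 replicate 1 exceeded the mean of replicates 2 to 4 by a median ratio of 4.64 over the glycerolipid list, above those of both classes of members, and of 14.6 over the 15 tested pan-epithelial markers.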

How the data were processed

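Total RNA of 8 libraries, 4 at E17.5 and 4 at P14, was prepared with TRIzol and an NEBNext Ultra kit, per the labels' protocols. The authors deposited 1 table of FPKM per gene and library. The build is GRCm39 and the tools named, without roles, are HISAT2, featureCounts, fastp, CASAVA and DESeq2 1.20.0, per the submitters' processing notes. How the FPKM were made and whether strand was used are not given in the sources used here. Multiplied by gene length, 100% of FPKM values were whole multiples of a step particular to the library (tolerance 0.001), from which reads and the effective library sizes were recovered. Intervals of fold changes are 95% limits from limma.

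The 14044 genes that reached 1 FPKM in 4 or more of the 8 libraries were tested as log2(FPKM + 1), which understates fold changes of low genes. The test was limma 3.58.1 (R 4.3.3, statmod 1.5.0) with intensity trend and robust moderation. A check on simulated reads had an equal dispersion for all genes and no library standing apart. It therefore does not cover a library such as P14 replicate 1. TPM here is FPKM rescaled to a fixed sum per library. Alternatives covered the pseudocount, filter, scaling, weights, voom, the replicate block and leaving out each library. All members were named. Of other lists, up to 3 called genes with the largest change and the gene with the highest mean were named. The members and lists were chosen with earlier results of these data known. Coordinates of genes are the table's own, on GRCm39, and promoters are RefSeq's, on GRCm38.p6.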

Additional observations from a re-analysis of the deposited data

Results flagged for a closer look

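With 4 libraries an age, a highest or lowest library was singled out when its gap to the next, as a share of the range of its group, passed Dixon's critical value, and 15 of 56 groups had such a library. About 1 group in 20 would by chance if the groups were independent. These groups share the same libraries, so the count cannot be judged against that rate. In 10 of the 15 the library singled out was P14 replicate 1, always on the high side. These were Stard4 (81.0 FPKM), Insig1 (67.1), Hsd17b7 (10.8), Sc5d (29.6), Srebf1 (42.6), Ebp (34.0), Scd2 (231), Msmo1 (75.9), Fasn (22.7) and Acat2 (51.2). Tm7sf2 in P14 replicate 3 was low (6.82 FPKM). At E17.5, Hsd17b7 in replicate 1 (3.34 FPKM) and Acaca in replicate 3 (4.26) were low, and Ebp in replicate 1 (12.7) and Scd1 in replicate 4 (10.9) were high.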

How the results depend on the processing

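With all libraries no member passed under the pseudocount of 0.1, no filter, the filter at a mean of 5 FPKM (which drops Hsd17b7 and Acaca), median-of-ratios rescaling, plain limma, voom, FPKM by assigned reads or the replicate block. 1 member, the fatty acid enzyme Scd2, fell after TPM rescaling and after quantile normalization (by 1.27 in each). Array quality weights gave 3 members up and 3 down, 1 of them a sterol enzyme up and 2 fatty acid enzymes down. Leaving out 1 library gave 0 to 2 members up and 0 to 3 down, 0 to 1 sterol enzymes up and 0 to 2 fatty acid enzymes down, where 2 up and 3 down came without P14 replicate 1, and 1 up (Tm7sf2) without P14 replicate 3. With TPM rescaling and P14 replicate 1 left out, 1 member was up and 7 down (sterol enzymes 1 and 2, fatty acid enzymes 4 down). With P14 replicates 2 and 4 only, 4 were up and 3 down (3 sterol enzymes up, 2 fatty acid enzymes down). The difference of class medians, 0.43, ranged from 0.26 to 0.54 over single omissions, and was 0.27 with array weights, 0.52 for means and 0.43 without Acly.

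Over all tested genes, 1365 were called higher and 2108 lower. These counts were 974 and 1398 with the stricter filter, 899 and 2678 after TPM rescaling, 3530 and 4196 with array weights, 695 and 1049 with the replicate block, 2741 and 4387 with TPM rescaling without P14 replicate 1, 2910 and 3274 with P14 replicates 2 and 4 only, and 617 to 3176 and 1118 to 3782 over single omissions.

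Signs turned for log2 fold changes that had not passed with all libraries. TPM rescaling gave Lss -0.03, Dhcr7 -0.02, Nsdhl -0.04, Mvk -0.15, Acat2 -0.05 and Elovl6 -0.08, where the median of all genes moved to -0.18. Mvk was -0.05 by assigned reads and -0.03 by voom. Array weights gave Dhcr7 -0.02, Msmo1 -0.01, Acat2 -0.22, Scd1 0.09, Elovl6 -0.05, Stard4 -0.35 and Cnbp 0.01. TPM rescaling without P14 replicate 1 gave Fdft1 -0.04, Lss -0.10, Dhcr7 -0.18, Msmo1 -0.23, Nsdhl -0.18, Acat2 -0.29, Srebf1 -0.08, Elovl6 -0.20, Stard4 -0.46 and Akt1 -0.03. P14 replicates 2 and 4 only gave Sqle 0.03, Msmo1 -0.02, Acat2 -0.11, Srebf1 -0.03, Elovl6 -0.03 and Stard4 -0.37. Over single omissions the ranges that crossed 0 were Hmgcs1 -0.17 to 0.11, Sqle -0.20 to 0.05, Lss -0.03 to 0.27, Cyp51 -0.28 to 0.10, Dhcr7 -0.10 to 0.32, Msmo1 -0.16 to 0.51, Nsdhl -0.10 to 0.31, Mvk -0.06 to 0.12, Acat2 -0.22 to 0.34, Srebf1 -0.02 to 0.41, Scd1 -0.25 to 0.08, Elovl6 -0.13 to 0.24 and Stard4 -0.38 to 0.39. The cause was not tested.

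Same-numbered libraries did not deviate together (correlations -0.0641 to 0.00947 across 14044 genes), so the replicate block pairs by number alone, and with it 0 members passed, as without it. With the block the calls of Acat1, Rnf145, Usp20, Gpat3 and Mogat2 were lost. FPKM by assigned reads, TPM rescaling without P14 replicate 1, and P14 replicates 2 and 4 only were added after the data had been seen. No interval here covers more than the spread of these libraries.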
